A study of Capra hircus with 9 samples.

Results

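Splicing factor RNA was examined in the rumen epithelium of goats. The genes were the 51 rows of the files named SRSF with a number, HNRNP, SNRP, or SF3A or SF3B with a number, all listed in each of the 9 libraries, out of 18383 genes in the whole series. They comprise 10 SRSF genes, 20 HNRNP genes, 12 SNRP genes and 9 SF3 genes. The rule uses gene names and no measured value, but it was set with earlier results of these data known. The rumen is the largest forestomach of ruminants, and its stratified epithelium takes up the acids that microbes make from feed. The goats were 4 months old and fed 1 of 3 concentrate diets, which the labels call HC, MC and LC without giving their composition, and no group is labelled as an untreated control. Each diet had 3 libraries, called here LC1 to LC3, MC1 to MC3 and HC1 to HC3 after the titles. No label says that they came from separate animals, so the p-values measure the spread between these libraries, which may be technical.

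Before most pre-mRNAs leave the nucleus, the spliceosome cuts out their introns. Its small nuclear ribonucleoproteins (snRNPs) each carry an RNA and a ring of Sm proteins, encoded by SNRPB, SNRPD1, SNRPD2, SNRPD3, SNRPE, SNRPF and SNRPG, with added proteins that belong to the U1 snRNP, which finds the start of an intron, or to the U2 snRNP, which finds the branch point. The SF3A and SF3B complexes are parts of the U2 snRNP. SR proteins, encoded by the SRSF genes, bind exons through RNA recognition motifs and recruit the spliceosome through domains rich in arginine and serine, while heterogeneous nuclear ribonucleoproteins (hnRNPs) coat nascent RNA and often counter them. Many SR protein and hnRNP genes hold exons whose inclusion sends the mRNA to nonsense-mediated decay, so that each protein limits its own RNA. Values per gene, as used here, do not separate such transcripts from the coding ones.

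All values are FPKM, mapped fragments scaled by transcript length and by library depth, so levels can be compared between genes. The total over all genes was 755624 FPKM in LC1, below the range of 903006 to 1051183 FPKM of the other libraries. With no counts in the files, depth is unknown. Epithelial keratin KRT5 ran from 2696 to 4803 FPKM in the 9 libraries, while KRT1, a keratin of cornified skin, was listed in 4 libraries, each at 0.0270 to 0.0826 FPKM. Smooth muscle RNA, as the summed level of 8 markers listed in every library, varied widely. It was 56.7 to 2349 FPKM in LC, 1165 to 3604 FPKM in MC and 111 to 145 FPKM in HC, with LC3 at the lowest value. The sum hides ACTA2, which stood at 9.19 to 23.0 FPKM in LC, 14.8 to 31.0 in MC and 25.1 to 32.4 in HC. The other 7 markers had negative log2 changes in HC against LC and against MC. The HC files also differed from the others in a header word and in 11468 to 12038 empty lines, a difference that cannot be told apart from the diet. In bulk RNA, fewer cells of a type and less RNA per cell cannot be told apart.

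The splicing factors were abundant, with 50 of 51 past the filter of at least 1 FPKM in at least 3 libraries, the exception being SRSF12, an SR-related repressor of splicing, at 0.0205 to 0.377 FPKM. The highest means over the 9 libraries were those of the Sm protein gene SNRPD2 (346 FPKM), HNRNPA2B1 (224 FPKM), HNRNPA1 (201 FPKM), HNRNPK (169 FPKM) and HNRNPAB (142 FPKM). After SRSF12, HNRNPLL (5.64 FPKM) and HNRNPH2 (8.89 FPKM) had the lowest. Median levels were 85.6 FPKM for HNRNP genes, 64.3 FPKM for SNRP, 38.8 FPKM for SF3 and 37.1 FPKM for SRSF. SNRPD2 exceeded HNRNPA2B1 in every library, by least in LC1 (192 and 181 FPKM), and the ranges of HNRNPA2B1 and HNRNPA1 overlapped. Within a diet the median coefficient of variation over the 50 genes was 12.4% in LC, 8.71% in MC and 10.2% in HC. HNRNPK shares its locus in the files with LOC106502432, SF3A2 with PLEKHJ1 and SNRPN with SNURF, so their values are uncertain, as are those of members with near-identical copies elsewhere in the genome.

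Together the 51 genes took a larger share of the summed FPKM in MC than in the other diets. The share was 0.444% to 0.467% in MC, against 0.349% to 0.404% in LC and 0.323% to 0.348% in HC, with no overlap between MC and the rest. LC1 had the highest share of the 51 genes outside MC, and its total was the smallest. The share of the HNRNP genes alone did overlap, at 0.225% in LC1 against 0.2121% to 0.2248% in MC. In the F test of limma over the 3 diets 23 of 50 genes differed (46%), close to the 45.2% of all 11668 genes tested. The mean was highest in MC for 19 of them, 38.0% of the 50 beside 18.4% of all genes, in LC for 3 (19.6% of all genes) and in HC for 1 (7.19% of all genes). Without MC1 or MC2 the F test called 14 and 15 of the 50. The F test count over all genes was not taken in these settings. In the pairwise comparison of MC against LC, a different test, calls over all genes went from 3894 to 2834 and 2974. For 16 of the 50, all 3 MC libraries lay above the other 6 libraries (15.1% of all genes), and for HNRNPL and HNRNPUL1 all 3 lay below (8.46% of all genes). No splicing factor had its 3 HC libraries above the other 6 (4.23% of all genes), and 7 had them below (11.8% of all genes). The 3 LC libraries lay above the rest for 2 genes (14.2% of all genes) and below for 5 (8.57% of all genes).

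**Figure D1:**
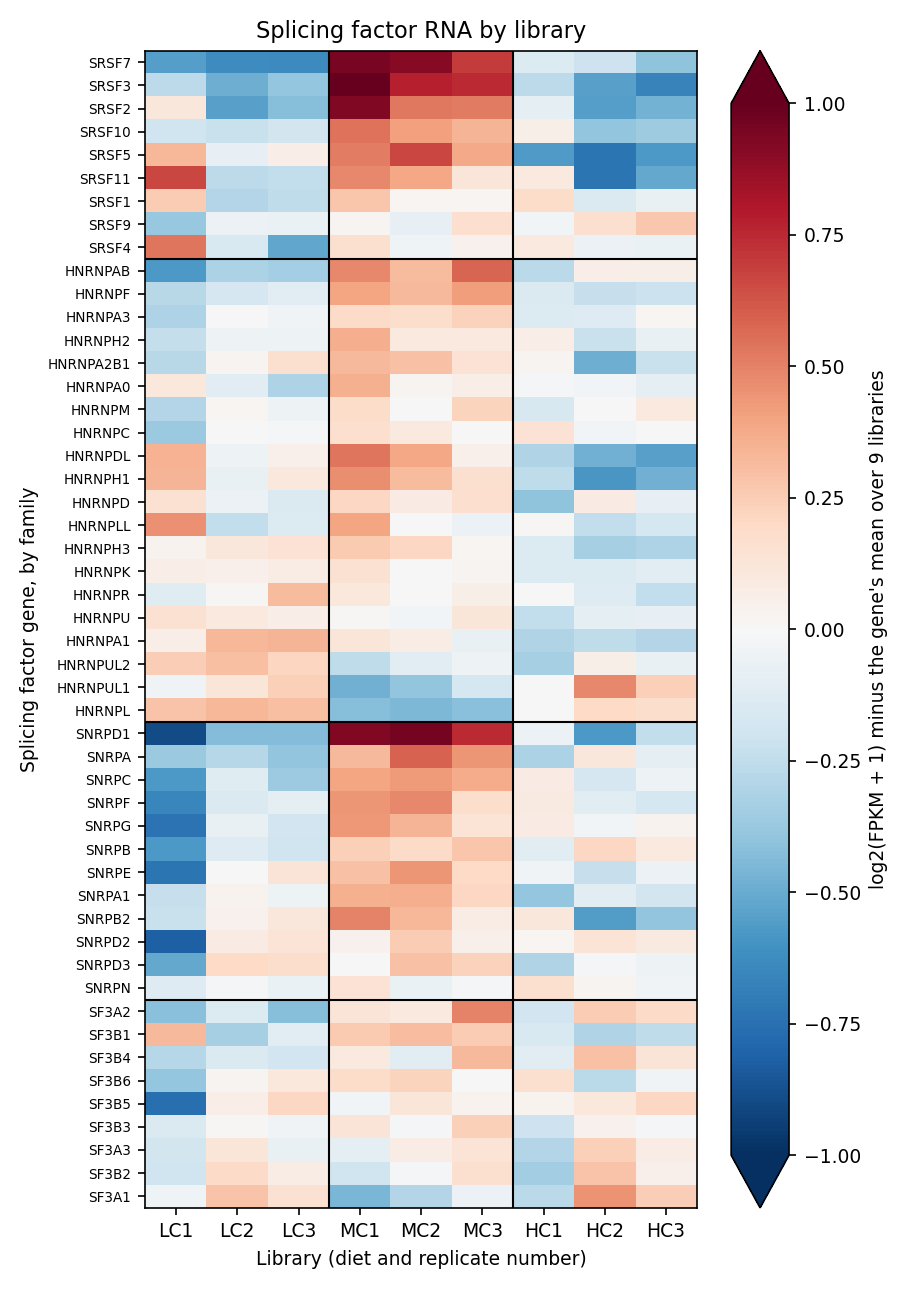
Heat map of the 50 tested splicing factor genes (rows, by family) in the 9 libraries (columns); colour is log2(FPKM + 1) minus the gene's mean over the libraries, red above and blue below, with values beyond 1 shown at the end colours. The SRSF7, SRSF3, SRSF2 and SNRPD1 rows are red in MC1 to MC3, and LC1 is blue for most SNRP genes.

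In MC against LC, most changed splicing factors were higher in MC. Of the 50 genes, 18 passed the test (36%, beside 33.4% of all genes), of which 15 rose (30%, beside 16.2%) and 3 fell (6%, beside 17.1%), in limma on log2(FPKM + 1) with Benjamini-Hochberg adjustment over all genes and a threshold of 0.05. The median log2 change of the 50 was 0.25, beside -0.0067 for all genes. The libraries of both diets did not overlap for 20 genes higher in MC (23.8% of all genes) and 4 lower (23.4%), and 3 genes changed by at least 1 log2 (6.48% of all genes). By family, 5 of 9 SRSF, 7 of 12 SNRP, 2 of 20 HNRNP and 1 of 9 SF3 genes rose, and the falls were 3 HNRNP genes. Leaving out HC3, MC1, MC2, LC2 or LC3 left 1 fall. The falls among all genes went from 1998 to between 1468 and 1796 in these settings. In HC against MC 18 of 50 genes passed (25.0% of all genes), 16 lower in HC (17.0% of all genes) and 2 higher (8.00% of all genes), with a median of -0.27 beside -0.10 for all genes. No overlap was seen for 28 genes lower in HC (31.6% of all genes) and 2 higher (14.7%), and 5 changed by at least 1 log2 (3.38% of all genes). Without MC2, 10 genes were lower, and 1175 of all genes were, in place of 1984. The lower genes were 5 of 9 SRSF, 5 of 12 SNRP, 5 of 20 HNRNP and 1 of 9 SF3 genes. Both comparisons use the MC libraries, so the values for each gene are given side by side. Median-of-ratios scaling split the HC minus MC calls into 11 lower and 3 higher. For all genes it gave 1232 lower and 1494 higher, in place of 1984 and 933. With the mean of the smooth muscle markers as a covariate, an alternative chosen after seeing the data, MC minus LC gave 14 rises and 1 fall. Over all genes it gave 1850 rises and 1843 falls there, in place of 1896 and 1998. HC minus MC then gave 4 falls (SRSF3, SRSF5, SRSF7 and SNRPD1) and 0 rises, while the median change of the 50 genes went from -0.27 to -0.39 and the number of genes called among all tested from 2917 to 979. Log2 changes are on the scale of log2(FPKM + 1), with ± SE, and levels are given per library or as mean ± SD (n = 3).

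**Figure D2:**
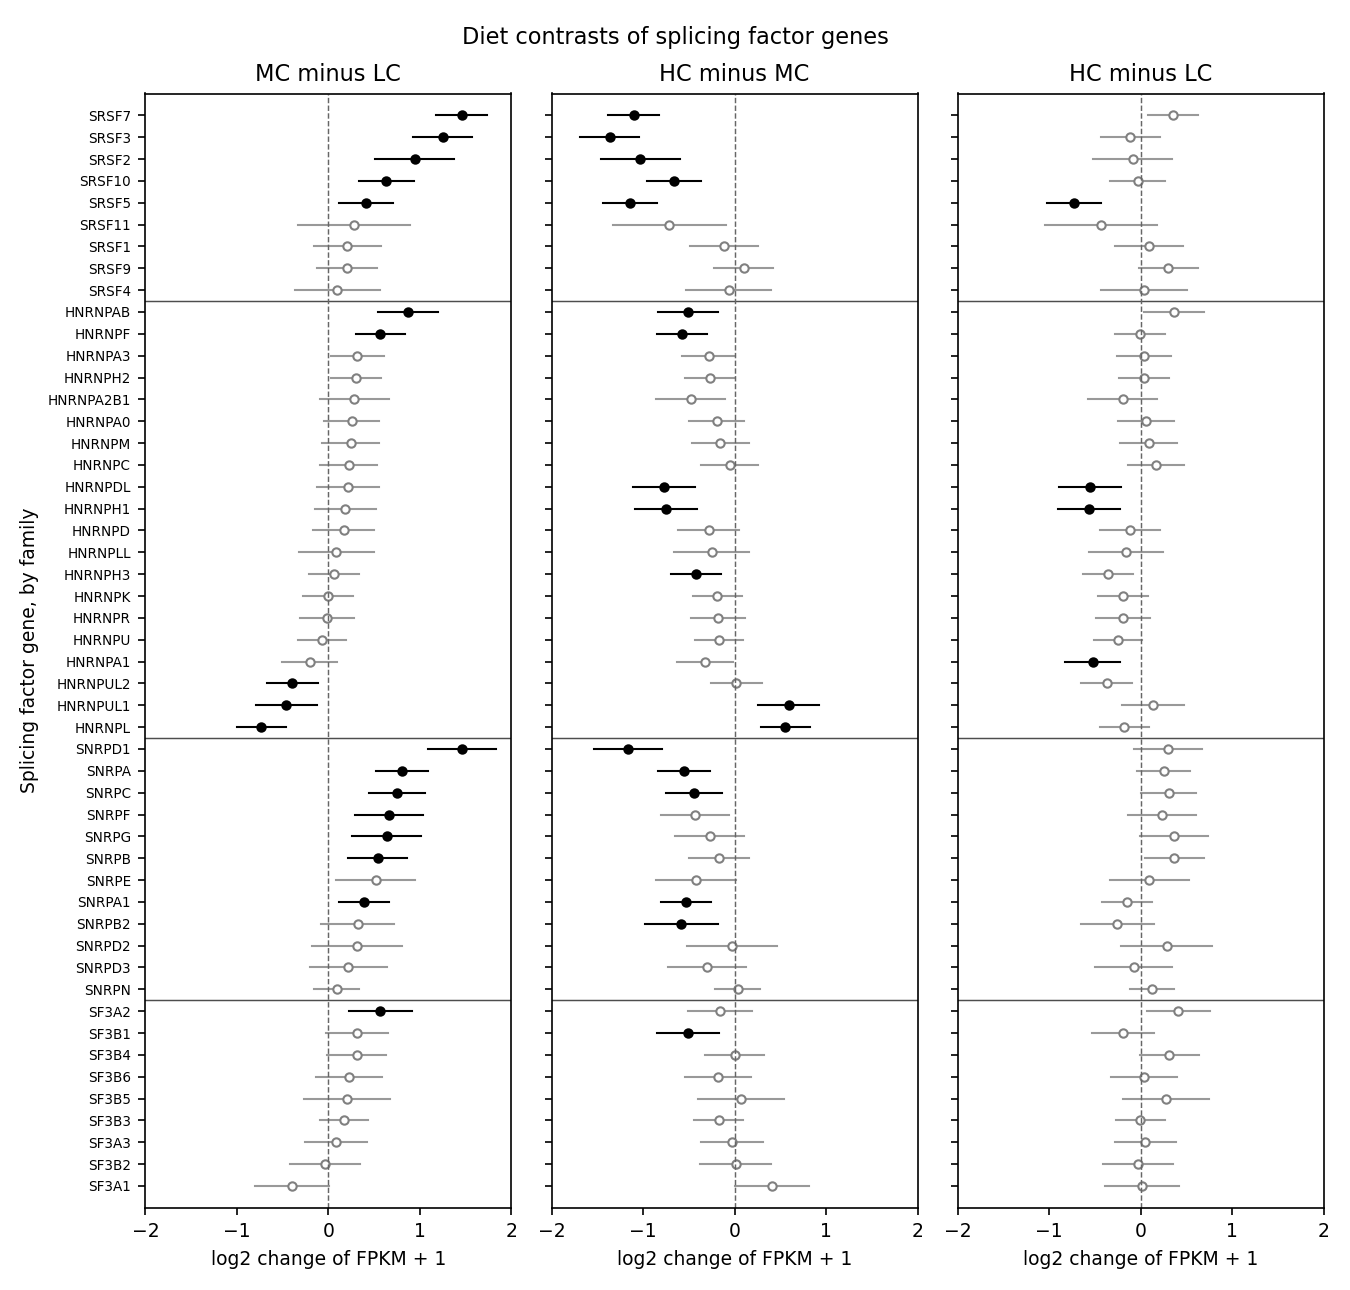
Log2 change of FPKM + 1 (x axis) with its 95% interval for each tested splicing factor gene (y axis, by family) in the 3 diet contrasts; filled black points passed the adjusted threshold of 0.05 and open grey points did not. SRSF3, SRSF7 and SNRPD1 lie above 1 in MC minus LC, these 3 with SRSF2 and SRSF5 lie below -1 in HC minus MC, and the HC minus LC panel has 4 filled points, all below 0.

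Among the SR proteins, the largest changes in MC against LC were in SRSF7, SRSF3 and SRSF2. SRSF7 (chromosome 11, 20831986 to 20837240, counted from 1, in the files' build, which is not given in the sources used here), an SR protein with a zinc knuckle that also acts in mRNA export, stood at 32.3, 30.6 and 30.4 FPKM in LC1 to LC3, 93.3, 90.5 and 78.02 in MC1 to MC3 and 43.3, 41.2 and 35.8 in HC1 to HC3. Every MC library was at or above 78.02 FPKM and every other library at or below 43.3 FPKM. The MC mean was 2.81 times that of LC (log2 change 1.46 ± 0.13, adjusted p = 1.25e-05) and 2.18 times that of HC (HC minus MC: log2 change -1.10 ± 0.13, adjusted p = 2.22e-04). SRSF3 (chromosome 23, 10159310 to 10169398), the smallest SR protein and likewise an export adaptor, was measured at 34.4, 29.1 and 31.3 FPKM in LC1 to LC3, 89.5, 71.3 and 69.8 in MC1 to MC3 and 34.3, 28.1 and 25.6 in HC1 to HC3. The 3 MC libraries again stood apart, while LC and HC overlapped. The SRSF3 mean in MC was 2.43 times that in LC (log2 change 1.25 ± 0.15, adjusted p = 9.37e-05) and 2.62 times that in HC (HC minus MC: log2 change -1.36 ± 0.15, adjusted p = 1.64e-04). For SRSF2, the protein that marks nuclear speckles, the values were 75.6, 47.7 and 51.9 FPKM in LC1 to LC3, 133, 101 and 101 in MC1 to MC3 and 65.3, 47.4 and 50.2 in HC1 to HC3, with LC1 and HC1 the highest of their diets yet below all MC libraries. Its log2 change was 0.94, adjusted p = 0.00354, in MC minus LC and -1.03, adjusted p = 0.00383, in HC minus MC.

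SRSF5 and SRSF10 were also highest in MC. SRSF5, which binds exonic enhancers, had 28.1, 20.8 and 23.2 FPKM in LC1 to LC3, 31.9, 35.6 and 28.9 in MC1 to MC3 and 14.6, 12.9 and 14.5 in HC1 to HC3. Its 3 groups did not overlap and ran from HC over LC to MC. It was lower in HC than in MC (log2 change -1.14 ± 0.14, adjusted p = 2.73e-04) and lower in HC than in LC (log2 change -0.73 ± 0.14, adjusted p = 0.00273), but the rise of MC over LC (log2 change 0.41 ± 0.14, adjusted p = 0.0359) lost its call in 8 of 18 alternative settings, among them those without HC3, MC1, MC2, LC2 or LC3. SRSF10, which represses splicing when it loses its phosphates, rose between LC (23.8 ± 0.372 FPKM) and MC (37.4 ± 2.78 FPKM) (log2 change 0.63 ± 0.14, adjusted p = 0.00446) and stood at 23.5 ± 4.49 FPKM in HC (-0.66, adjusted p = 0.0058, in HC minus MC). The other 4 tested SR protein genes did not pass in MC minus LC. These were SRSF4 (0.10, 95% interval -0.37 to 0.57), SRSF9 (0.20, 95% interval -0.12 to 0.53), SRSF1 (0.21, 95% interval -0.16 to 0.57) and SRSF11 (0.28, 95% interval -0.34 to 0.89). The interval of SRSF1, a founding member of the family, reaches past the change of SRSF5. SRSF11 was spread widely within LC (25.5, 12.9 and 13.04 FPKM), with LC1 the highest of all 9 libraries. SRSF4 also had its highest value in LC1 (13.6 FPKM) and its lowest in LC3 (6.04 FPKM).

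**Figure D3:**
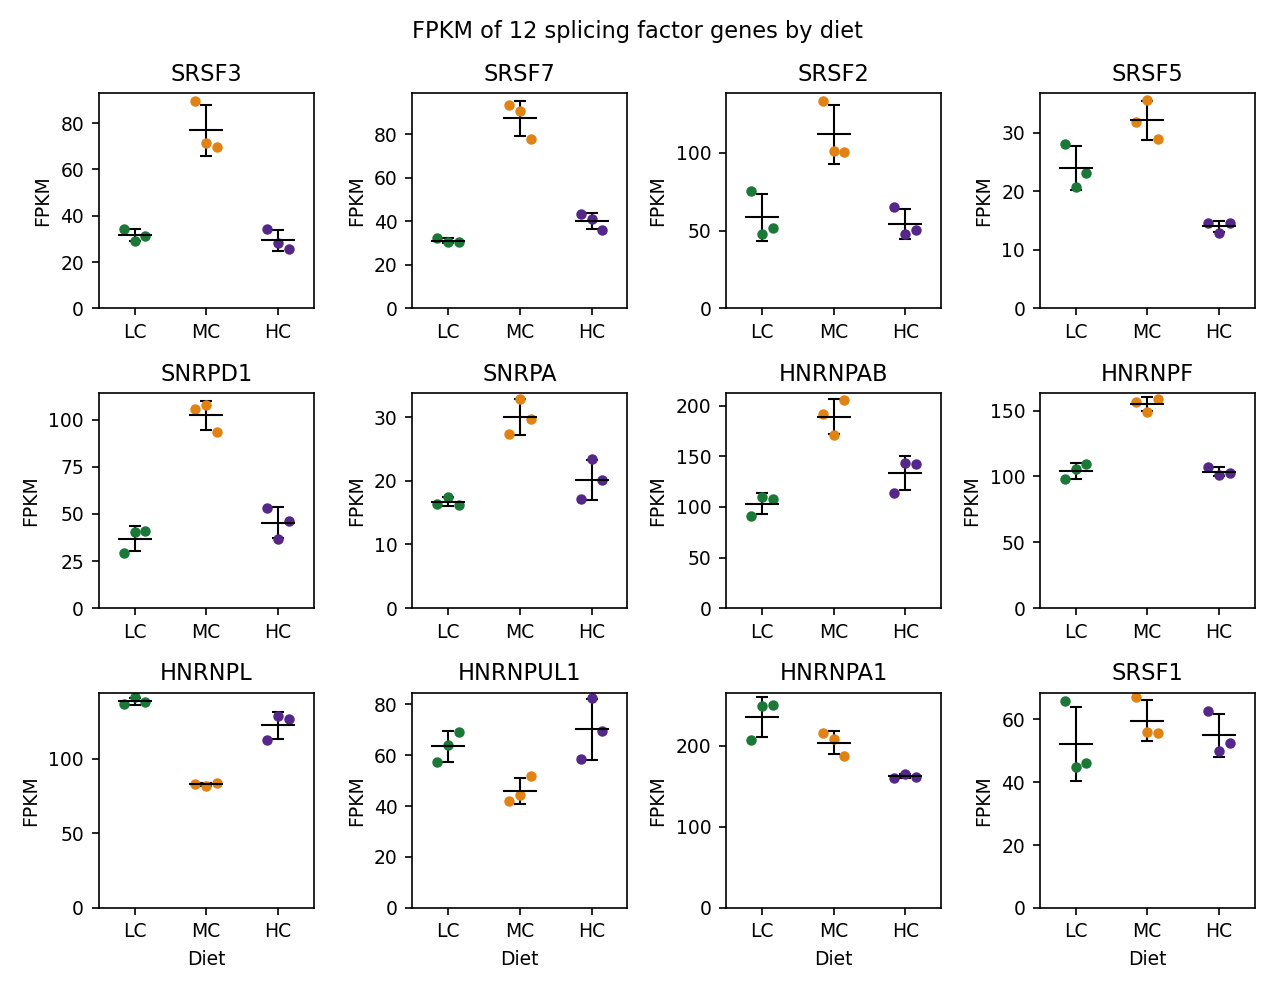
FPKM (y axis, from 0) of 12 splicing factor genes by diet (x axis); points are libraries, the dash is the mean and bars are the SD of 3 libraries. MC lies above both other diets for the first 8 panels, below them for HNRNPL and HNRNPUL1, overlaps LC and lies above HC for HNRNPA1, and overlaps both for SRSF1.

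Of the 7 Sm ring genes, 4 rose in MC against LC and SNRPD1 changed most. SNRPD1 (chromosome 24, 34728488 to 34735994), which encodes the Sm protein D1, stood at 29.3, 40.7 and 40.7 FPKM in LC1 to LC3, 106, 108 and 93.4 in MC1 to MC3 and 53.02, 36.8 and 46.5 in HC1 to HC3. All MC libraries exceeded all others, and its MC mean was 2.77 times that of LC (log2 change 1.46 ± 0.17, adjusted p = 8.37e-05) and 2.25 times that of HC (HC minus MC: log2 change -1.17 ± 0.17, adjusted p = 8.54e-04). SNRPF rose from 64.1 ± 13.1 to 101 ± 11.3 FPKM (log2 change 0.66 ± 0.17, adjusted p = 0.0111), SNRPG from 52.8 ± 12.3 to 81.4 ± 8.52 FPKM (log2 change 0.64 ± 0.17, adjusted p = 0.014) and SNRPB from 60.05 ± 9.70 to 86.8 ± 2.49 FPKM (log2 change 0.54 ± 0.15, adjusted p = 0.016). SNRPE (0.52, 95% interval 0.08 to 0.95), SNRPD2 (0.31, 95% interval -0.18 to 0.81) and SNRPD3 (0.22, 95% interval -0.20 to 0.64) did not pass. SNRPN, a relative of SNRPB known from neurons, did not pass either (0.09, 95% interval -0.15 to 0.33). In HC minus MC, SNRPD1 was the 1 Sm ring gene past the test, and SNRPF (-0.43, adjusted p = 0.0825) and SNRPG (-0.27, adjusted p = 0.261) were not. The rise of SNRPB was lost without MC1 or MC3 (adjusted p up to 0.0509) and that of SNRPG without MC1 (0.059).

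The proteins of the ring are built in equal number, but their RNAs differed in level. SNRPD2 was the highest in every library. SNRPD1 was the lowest of the 7 in all LC and HC libraries. In MC its mean (102 FPKM) exceeded those of SNRPE, SNRPG and SNRPB (84.5, 81.4 and 86.8 FPKM). It also exceeded that of SNRPF (101 FPKM), though not in every MC library. The ratio of the highest to the lowest ring gene was 4.22 to 4.88 in the MC libraries, 6.57 to 9.21 in LC and 6.51 to 10.2 in HC. LC1 differed from LC2 and LC3 in these genes: its values were 0.523 to 0.748 times the mean of the other 2 for all 7, against a median of 0.945 for all genes. SNRPD2, for example, stood at 192, 361 and 375 FPKM in LC1 to LC3. The same was seen in the small SF3B subunit gene SF3B5 (75.8, 134 and 149 FPKM), while SRSF genes had a median ratio of 1.28. What set LC1 apart was not tested. Without LC1, 6 in place of 7 SNRP genes rose in MC and their median log2 change was 0.36 in place of 0.53, SNRPD1 still rose (1.31, adjusted p = 1.51e-04), and 6 in place of 5 SRSF genes did.

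**Figure D4:**
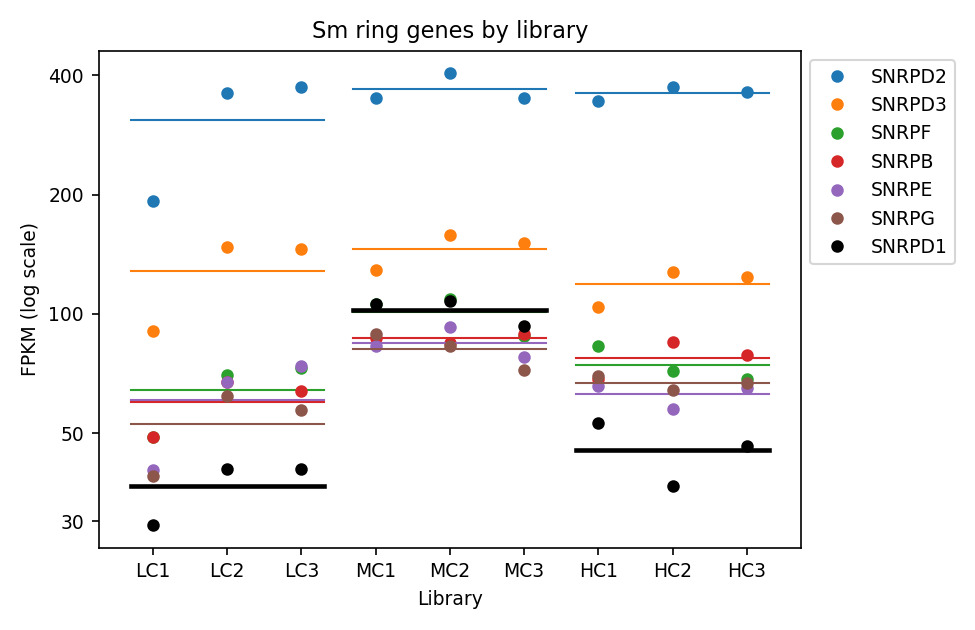
FPKM (y axis, log scale) of the 7 Sm ring genes in the 9 libraries (x axis); points are libraries and horizontal lines the mean of each diet, with SNRPD1 in black. SNRPD1 lies lowest in LC and HC but among the middle genes in MC, and all 7 genes are lowest within LC in LC1.

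The genes for proteins of single snRNPs also had their highest mean RNA level in MC, though not every difference passed. SNRPA, the U1 protein that binds a stem loop of U1 RNA, had 16.4, 17.5 and 16.2 FPKM in LC1 to LC3, 27.3, 32.9 and 29.7 in MC1 to MC3 and 17.1, 23.4 and 20.1 in HC1 to HC3. SNRPC, the U1 protein that helps to hold the start of the intron, had 35.1, 48.4 and 40.7 FPKM in LC1 to LC3, 69.3, 71.2 and 68.5 in MC1 to MC3 and 55.7, 46.7 and 50.9 in HC1 to HC3. MC lay above the other diets for both genes, and HC overlapped LC. SNRPA rose in MC against LC (log2 change 0.80 ± 0.13, adjusted p = 8.25e-04) and was lower in HC than in MC (-0.55, adjusted p = 0.0113). SNRPC did likewise (log2 change 0.75 ± 0.14, adjusted p = 0.00182, and -0.44, adjusted p = 0.0373, in HC minus MC). Of the U2 proteins, SNRPA1 rose in MC against LC (27.1 to 35.7 FPKM, 0.39, adjusted p = 0.0321) and SNRPB2 did not pass there (0.32, 95% interval -0.08 to 0.72). Both were lower in HC than in MC (-0.53, adjusted p = 0.0103, and -0.58, adjusted p = 0.0374), although the HC and MC libraries of SNRPB2 overlapped, with HC1 at 34.4 and MC3 at 33.4 FPKM. Single libraries decided several of these calls. The rise of SNRPA1 was lost without HC3, MC1, MC2, LC1 or LC3 (adjusted p up to 0.1). In HC minus MC the call was lost for SNRPA without MC2 (0.054) and for SNRPB2 without HC2, HC3, MC1 or MC2 (up to 0.142). That of SNRPC was lost without HC2, HC3, MC1, MC2 or MC3 (up to 0.126). Median-of-ratios scaling also ended the HC minus MC calls of SNRPB2 and SNRPC, and quantile normalization that of SNRPB2.

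The SF3 genes had the fewest calls. SF3A2 rose in MC against LC, from 18.4 ± 2.28 to 27.8 ± 4.60 FPKM (log2 change 0.57 ± 0.16, adjusted p = 0.0166), a call lost without MC3 or LC3 (adjusted p = 0.0682 and 0.0533). SF3B1, the large subunit that contacts the branch point, was lower in HC than in MC (30.95 ± 1.68 against 44.5 ± 0.907 FPKM, log2 change -0.51 ± 0.16, adjusted p = 0.0331). Leaving out HC2, HC3, MC1, MC2 or MC3 ended that call, as did median-of-ratios scaling and quantile normalization. SF3B2 (-0.04, 95% interval -0.42 to 0.34), SF3A3 (0.08, 95% interval -0.26 to 0.42) and SF3B3 (0.17, 95% interval -0.10 to 0.44) were nearest to no change in MC minus LC. SF3A1 had the largest negative change, which did not pass (34.6 FPKM in LC and 26.02 in MC, -0.40, 95% interval -0.80 to 0.0038).

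The hnRNP genes moved in both directions. HNRNPAB, a relative of hnRNP D, had 91.5, 110.0 and 108 FPKM in LC1 to LC3, 191, 171 and 205 in MC1 to MC3 and 114, 143 and 143 in HC1 to HC3. MC stood above HC and HC above LC without overlap. It rose in MC against LC (log2 change 0.87 ± 0.15, adjusted p = 0.00117). Its decrease in HC against MC (-0.51, adjusted p = 0.0301) was lost without any 1 of the HC or MC libraries (adjusted p up to 0.0935). Median-of-ratios scaling ended the call of that decrease too. HNRNPF, a binder of G-runs, had 97.7, 105 and 109.8 FPKM in LC1 to LC3, 156, 149 and 159 in MC1 to MC3 and 107, 101 and 102 in HC1 to HC3. Its LC and HC libraries overlapped and lay below all of MC (0.57, adjusted p = 0.00442, in MC minus LC and -0.58, adjusted p = 0.0067, in HC minus MC). HNRNPL (chromosome 18, 47392341 to 47402120), which binds CA repeats and can block or aid exons, went the other way with 136, 141 and 138 FPKM in LC1 to LC3, 82.8, 81.9 and 83.5 in MC1 to MC3 and 112, 128 and 126 in HC1 to HC3. The MC libraries lay within 81.9 to 83.5 FPKM, and its mean there was 0.598 times that of LC (log2 change -0.74 ± 0.12, adjusted p = 9.07e-04). HC was above MC (log2 change 0.55 ± 0.12, adjusted p = 0.00781). The related HNRNPLL was low and did not pass (5.82, 6.14 and 4.97 FPKM in LC, MC and HC).

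Of the 3 genes of the hnRNP U type, 2 fell in MC against LC. HNRNPUL1 had 57.2, 64.04 and 69.2 FPKM in LC1 to LC3, 41.8, 44.4 and 51.8 in MC1 to MC3 and 58.6, 82.4 and 69.5 in HC1 to HC3, with every MC library under every other one (-0.46, adjusted p = 0.0379, in MC minus LC and 0.59, adjusted p = 0.017, in HC minus MC). HNRNPUL2 was at 33.6 FPKM in LC, 25.4 in MC and 25.9 in HC (-0.39, adjusted p = 0.0333). Both falls were lost without HC3, MC1, MC2, LC2 or LC3 (adjusted p up to 0.136 and 0.126). Scaling to an equal sum per library also ended the fall of HNRNPUL2. The difference of HNRNPUL1 between HC and MC was lost without HC2, HC3, MC1 or MC2 (up to 0.0738). HNRNPU itself, a nuclear scaffold protein, did not pass (-0.07, 95% interval -0.33 to 0.19). HNRNPK (-0.0033, 95% interval -0.28 to 0.27), which binds C-rich RNA, HNRNPR (-0.02, 95% interval -0.31 to 0.28) and HNRNPH3 (0.07, 95% interval -0.21 to 0.34) were nearest to no change. HNRNPH3 was lower in HC than in MC (-0.42, adjusted p = 0.0305), a call lost without HC2, HC3, MC1 or MC2 (adjusted p up to 0.121). That call was also lost with median-of-ratios scaling.

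HC against LC compared the other pair of diets, and here few splicing factors passed. In limma 4 of 50 genes passed (8%, beside 25.2% of all genes). All 4 fell (17.4% of all genes) while 0 rose (7.79% of all genes). At an unadjusted p under 0.05, 6 of the 50 were lower and 5 higher, beside 3074 lower and 1401 higher of all 11668 genes. The median log2 change was 0.023, beside -0.10 for all genes. The libraries did not overlap for 6 genes higher in HC (13.3% of all genes) and 9 lower (27.4%), and 0 changed by at least 1 log2 (4.96% of all genes). Other scalings moved the split: 9 rises and 1 fall were called with median-of-ratios scaling, and 2 rises and 5 falls with quantile normalization. The split of all genes moved too, from 909 rises and 2030 falls to 1620 and 1187 with median-of-ratios scaling. With quantile normalization it was 1481 and 1162. Without HC3, 1 gene fell, and 1235 of all genes did, in place of 2030. SRSF5, given above, had the largest fall. HNRNPH1, like HNRNPF a binder of G-runs, had 104, 77.7 and 88.3 FPKM in LC1 to LC3, 113, 102 and 91.5 in MC1 to MC3 and 68.6, 54.2 and 58.2 in HC1 to HC3. HNRNPDL, another hnRNP D relative, had 45.1, 34.03 and 36.6 FPKM in LC1 to LC3, 51.8, 46.6 and 36.7 in MC1 to MC3 and 28.4, 25.1 and 23.9 in HC1 to HC3. HNRNPA1, which often opposes SRSF1 at splice sites, had 207, 249 and 251 FPKM in LC1 to LC3, 216, 209 and 188 in MC1 to MC3 and 161, 166 and 162 in HC1 to HC3. For each of the 3, every HC library lay below every LC and every MC library. Their log2 changes were -0.57, adjusted p = 0.0202, for HNRNPH1, -0.56, adjusted p = 0.0233, for HNRNPDL and -0.53, adjusted p = 0.0172, for HNRNPA1, and median-of-ratios scaling ended all 3 calls (adjusted p = 0.0823, 0.0915 and 0.079). Leaving out HC2 or HC3 also ended the calls of HNRNPH1 and HNRNPDL, LC1 that of HNRNPDL, and HC3, LC2 or LC3 that of HNRNPA1 (adjusted p up to 0.0924). Quantile normalization ended the HNRNPDL call too, and a fit of HC and LC alone that of HNRNPA1. HNRNPH1 (-0.75, adjusted p = 0.0055) and HNRNPDL (-0.77, adjusted p = 0.00529) were also lower in HC than in MC, and HNRNPA1 did not pass there (-0.32, adjusted p = 0.108). SF3B3 (-0.0041, 95% interval -0.27 to 0.26), HNRNPF (-0.01, 95% interval -0.28 to 0.26) and SRSF10 (-0.03, 95% interval -0.33 to 0.27) were nearest to no change in their families.

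Other genes of splicing and of related RNA steps were described from 8 lists. In the list of the SMN complex and snRNP assembly, the steps that load Sm proteins onto small nuclear RNA, 9 of 17 tested genes rose in MC against LC (52.9%, beside 16.2% of all genes) and 2 fell (11.8%, beside 17.1%) (list median 0.48). In HC minus MC 9 were lower (52.9%, beside 17.0% of all genes), with a median of -0.49. PRMT5, which methylates Sm proteins, rose between LC (10.3 ± 1.19 FPKM) and MC (25.8 ± 2.39 FPKM) (log2 change 1.25 ± 0.13, adjusted p = 3.60e-05) and stood at 13.6 ± 1.57 FPKM in HC. Its partner WDR77 rose from 1.97 to 4.32 FPKM (0.84, adjusted p = 4.70e-04), the cap-binding NCBP1 from 9.31 to 16.8 FPKM (0.80, adjusted p = 0.00127) and GEMIN4 from 1.89 to 4.01 FPKM (0.79, adjusted p = 0.00144). In the list of LSm proteins, relatives of the Sm proteins that do not all act in splicing, 5 of 13 rose in MC against LC (38.5%, beside 16.2% of all genes, median 0.34). Among them were LSM1 (11.1 to 20.5 FPKM, 0.85, adjusted p = 0.00281) and LSM4 (32.9 to 55.6 FPKM, 0.76, adjusted p = 0.00281). In HC minus MC 4 of the list were lower (30.8%, beside 17.0% of all genes).

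In the list of snRNP-specific and tri-snRNP proteins 7 of 25 rose in MC against LC (28%, beside 16.2% of all genes), 3 fell (12%, beside 17.1%) and the median was 0.088. USP39, needed to bring in the tri-snRNP, rose from 8.98 to 17.9 FPKM (0.92, adjusted p = 1.63e-04), and the U5 protein SNRNP40 from 9.16 to 15.3 FPKM (0.68, adjusted p = 7.25e-04). In the U2AF and branch site list 4 of 15 rose in MC against LC (26.7%, beside 16.2% of all genes), with a list median of 0.062. Among them were the helicase DHX15 (24.1 to 40.4 FPKM, 0.72, adjusted p = 0.00212) and U2AF1, which reads the end of the intron (61.2 to 96.1 FPKM, 0.65, adjusted p = 0.00394). In HC minus MC 6 of the 15 were lower (40%, beside 17.0% of all genes) and 0 higher. In HC minus LC 3 were lower (20%, beside 17.4% of all genes) and 0 higher. In the list of the PRPF19 complex and catalytic steps 2 of 29 rose (6.9%, below the share of all genes), WDR83 (0.74, adjusted p = 0.00596) and PRPF38B (0.66, adjusted p = 0.00902), and 9 were lower in HC than in MC (31%, beside 17.0% of all genes), among them CWC22 (-0.70, adjusted p = 0.00489).

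Kinases, transport and relatives of SR proteins had 6 rises (25%, beside 16.2% of all genes) and 1 fall (4.17%, beside 17.1%) among 24 genes in MC against LC. SRPK1, which phosphorylates SR proteins, had 10.7 ± 1.45 FPKM in LC, 16.9 ± 1.12 in MC and 9.86 ± 0.747 in HC (0.62, adjusted p = 0.00245, in MC minus LC and -0.72, adjusted p = 0.00198, in HC minus MC). CLK4, another such kinase, was higher in HC than in MC (17.6 against 8.40 FPKM, 0.98, adjusted p = 0.0158), beside 6 genes of the list that were lower (25%, with 17.0% of all genes lower). Of the exon junction complex and nonsense-mediated decay genes, 4 of 15 rose in MC against LC (26.7%, beside 16.2% of all genes) and 2 fell (13.3%, beside 17.1%). The 4 that rose, each of them encoding a protein of the exon junction core, were EIF4A3 (38.1 to 70.5 FPKM, 0.87, adjusted p = 2.91e-04), MAGOH (0.78, adjusted p = 0.004), MAGOHB (0.73, adjusted p = 0.00445) and RBM8A (0.38, adjusted p = 0.0228). CASC3, another core protein, fell (14.1 to 10.5 FPKM, -0.38, adjusted p = 0.0255). In HC against LC 5 of the 15 fell (33.3%, beside 17.4% of all genes), led by the decay factors UPF3B (6.54 to 2.98 FPKM, -0.92, adjusted p = 7.04e-04), SMG8 (-0.68, adjusted p = 0.00224) and UPF2 (-0.77, adjusted p = 0.00227). In HC against MC 7 of the 15 were lower (46.7%, beside 17.0% of all genes) and 0 higher. UPF3B (-1.02, adjusted p = 5.5e-04), SMG8 (-0.69, adjusted p = 0.00257) and UPF2 (-0.70, adjusted p = 0.00464) were among the lower genes there too.

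Among 31 other regulators of alternative splicing 7 rose (22.6%, beside 16.2% of all genes) and 2 fell (6.45%, beside 17.1%) in MC against LC (median 0.092), so that 29% were called beside 33.4% of all genes. The rises included KHDRBS3 (5.99 to 10.9 FPKM, 0.77, adjusted p = 0.00132) and SYNCRIP, a relative of HNRNPR (17.7 to 25.2 FPKM, 0.48, adjusted p = 0.00686). In HC against LC, RBM5, a regulator of exons in cell death genes, fell from 23.1 ± 4.80 to 10.1 ± 0.104 FPKM (log2 change -1.10 ± 0.14, adjusted p = 2.77e-04), and PTBP1, which binds pyrimidine tracts, rose from 55.8 ± 1.53 to 78.6 ± 8.40 FPKM (log2 change 0.48 ± 0.14, adjusted p = 0.0245). No set test was run on the 8 lists.

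Several markers of other cell types and of the epithelial layers differed between the diets too. Proliferating cell markers summed to 64.4 to 77.7 FPKM in LC, 161 to 166 in MC and 113 to 120.0 in HC. In limma 9 of 10 were higher in MC than in LC (16.2% of all genes). Of the 10, 4 were lower in HC than in MC (17.0% of all genes) and 7 higher in HC than in LC (7.79% of all genes). Macrophage and Langerhans cell markers (7 of 8 listed in every library, CD163 in none) summed to 42.8 to 54.2 FPKM in LC, 10.9 to 20.6 in MC and 27.3 to 35.6 in HC, T and NK cell markers (6 of 6) to 13.8 to 14.98, 11.4 to 13.6 and 12.4 to 17.3, fibroblast markers (6 of 6) to 205 to 508, 119.6 to 274 and 122 to 268, and endothelial markers (5 of 6) to 15.9 to 43.8, 10.9 to 26.1 and 7.46 to 16.7. The flat sum of the T and NK cell list hides opposite changes. CD3E stood at 3.65, 0.605 and 0.574 FPKM in LC, MC and HC (-1.56, adjusted p = 1.56e-04, in MC minus LC), and NKG7 at 2.91, 8.504 and 11.8 FPKM (1.28, adjusted p = 9.47e-05). In the F test 4 of 6 tested markers of the upper epithelial layers (66.7%) and 3 of 6 basal markers (50%) differed, beside 45.2% of all genes. KRT4 stood at 53.8, 2.03 and 21.1 FPKM in LC, MC and HC (-4.11, adjusted p = 1.51e-05, in MC minus LC), CNFN at 37.2, 9.34 and 24.3 (-1.88, adjusted p = 0.00206), TGM1 at 159, 336 and 199.5 (1.08, adjusted p = 0.00197) and the basal COL17A1 at 197, 115 and 149.7 (-0.78, adjusted p = 0.0062). The part of these cell types and layers in the splicing factor values was not tested. With LC3 alone for LC, the median log2 change of the splicing factors in MC minus LC was 0.24, beside -0.029 for all genes. No MC library had a smooth muscle sum as low as those of HC.

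**Figure D5:**
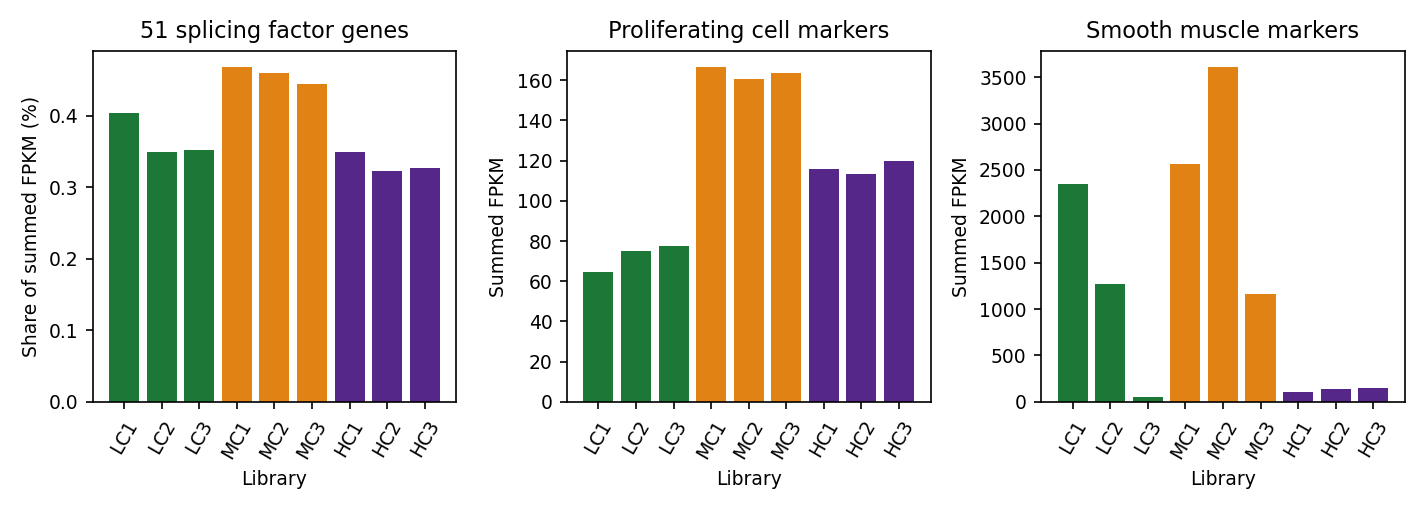
Bars per library (x axis, coloured by diet) of the share of summed FPKM taken by the 51 splicing factor genes (left, percent) and of the summed FPKM of 10 proliferating cell markers (middle) and 8 smooth muscle markers (right). The MC libraries are highest in the first 2 panels, while the smooth muscle bars range widely within LC and within MC and are low in all HC libraries.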

How the data were processed

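RNA-seq libraries of goat rumen epithelium, 3 per diet, were made from total RNA with a TruSeq kit, per the labels' protocols. The authors deposited 1 value per gene and library, read here as FPKM because the submitters' processing notes name Cufflinks 2.2.1, beside Bowtie 1.2.0. Build, strand and the handling of multiply mapped reads: not given in the sources used here. Locus positions of the files were raised by 1 at the start. Chromosomes were named from gene symbols in RefSeq's goat table (ARS1.2), which held all 51 members. It labelled HNRNPF as a long noncoding RNA and the other members as protein-coding.

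Lines with spreadsheet dates as names (18 to 21 in each MC and LC file) and empty lines were left out. Of 18383 genes, 11668 were listed in all 9 libraries with at least 1 FPKM in at least 3, and were tested on log2(FPKM + 1), which understates changes of low genes, with limma 3.58.1 in R 4.3.3: 1 model of the 3 diet means with 6 residual degrees of freedom, variances moderated with a trend and robustly, two-sided, Benjamini-Hochberg adjustment over all tested genes, threshold 0.05. The fit was tested on simulated data. Members and lists were chosen with earlier results of these data known. Named are the 10 largest rises and falls per contrast past the test, members that changed by at least 1 log2 without overlap, the 5 highest and 3 lowest, the 3 nearest to no change per family, and up to 4 genes per list and contrast. SF3A1, SF3A2, SF3B1, SF3B5, SNRPA1, SNRPB, SNRPE, HNRNPU, SRSF11, the markers given singly and values in single libraries were chosen after their values were seen. Alternatives changed the pseudocount, filter, scaling, moderation, weights, block and libraries. Figures used Python 3.11.15 and matplotlib 3.10.9, tables pandas 2.3.3 and numpy 2.4.6, and weights statmod 1.5.0.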

Additional observations from a re-analysis of the deposited data

How the results depend on the processing

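Of 40 calls of splicing factors over the 3 contrasts, 14 were past the threshold in all 20 alternatives, 2 of them chosen after seeing the data: 9 in MC minus LC (HNRNPAB, HNRNPF, HNRNPL, SNRPA, SNRPC, SNRPD1, SRSF2, SRSF3 and SRSF7), SNRPD1, SRSF3, SRSF5 and SRSF7 in HC minus MC, and SRSF5 in HC minus LC. No called member changed sign. In HC minus LC, median-of-ratios scaling gave 9 splicing factors higher and 1 lower with a median log2 change of 0.18, quantile normalization 2 higher, and an equal sum per library a median of -0.11, against 0.023 as deposited. Over all genes the HC minus LC median was -0.10 as deposited, 0.041 with median-of-ratios scaling and -0.22 with an equal sum per library. In HC minus MC the median of the splicing factors was -0.14 with median-of-ratios scaling and -0.43 with an equal sum per library, which called 25 lower. The median of all genes there was 0.012 and -0.25, and the equal sum called 2768 of all genes lower. Array quality weights gave 7 higher, 10 lower and 5889 genes called in HC minus LC, 5 lower in MC minus LC, and 4 higher, 27 lower and 6590 genes called in HC minus MC. The replicate block gave 3 splicing factors higher in HC minus LC. The labels give same-numbered libraries a number and nothing else in common, so the main fit did not pair them. Their deviations did share some structure by number. The correlations ran from -0.076 to 0.50, with 6 of 9 over 0.1, and 7 of 9 libraries correlated best with their own number. With the replicate block, genes called went from 2939 to 3751 in HC minus LC, 3894 to 4613 in MC minus LC and 2917 to 3871 in HC minus MC. Whether the numbers mark a pairing or a batch was not tested. SRSF genes had median ratios to the other libraries of their diet of 1.28 in LC1, 1.13 in MC1 and 1.23 in HC1. The other counts with the replicate block were within 1.5 times. With LC3 alone for LC (the lone library assumed to vary like the other diets), 2 splicing factors were lower and 1379 genes called in HC minus LC, and 9 were higher, 1 lower and 2322 genes called in MC minus LC. With the smooth muscle covariate 2 were lower in HC minus LC, 1 lower in MC minus LC, and 0 higher, 4 lower and 979 genes called in HC minus MC, with a median of -0.39. The cause of these shifts was not tested. Leaving out 1 library gave, in HC minus LC, 0 to 1 higher, 1 to 4 lower, 1753 to 2798 genes called and a median of -0.03 to 0.05, with the fewest lower and fewest genes without HC3. It gave 11 to 16 higher, 1 to 4 lower, 2834 to 3924 genes and a median of 0.22 to 0.30 in MC minus LC, and 1 to 3 higher, 10 to 22 lower, 1608 to 4022 genes and a median of -0.28 to -0.21 in HC minus MC, fewest genes without HC3. Those that differ among the diets numbered 14 to 25, fewest without MC1. The files hold no counts, so depth sets no limit that could be computed.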
